A study of Rattus norvegicus with 10 samples.

Results

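Aminoacyl-tRNA synthetases are the enzymes that join each amino acid to its transfer RNA, and 34 of their genes were measured among 12555 genes in rat liver. The members were taken by gene symbol, as the letter of the amino acid followed by ars, together with Farsa, Farsb and Eprs. By the symbol, 20 encode cytosolic enzymes (no digit, or 1) and 14 encode mitochondrial enzymes (2). The genes Tars2 and Vars2 were not analysed here. RNA sequencing covered 10 wild-type rat libraries, 5 from offspring of normally fed dams (normal 1 to 5) and 5 from offspring of dams kept on 30% fewer calories throughout gestation (restricted 1 to 5). The labels call the source a hepatocyte cell line, while the design text of the series describes liver tissue. The labels leave out age, sex, litter, feeding state and batch. They also do not tie each library to a separate animal, so each p-value reflects spread between libraries that may be technical.

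Each synthetase activates its amino acid with ATP and passes it to the matching transfer RNA, which then enters the ribosome. Cells run this step in the cytosol and again inside mitochondria, where nuclear-encoded synthetases serve the few proteins made from mitochondrial DNA. Class I and class II enzymes are unrelated in their catalytic fold, and several cytosolic enzymes sit together in a multi-synthetase complex. In mammalian cells short of amino acids, the transcription factor ATF4 is known to raise many cytosolic synthetase genes, along with genes of amino acid synthesis and uptake.

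The motif TGATGNAA, a form of the composite site bound by ATF4 with a C/EBP partner, was searched on both strands of RefSeq promoter windows (build GRCr8), which span 250 bases before to 50 after a transcript start. It is shown because the share of cytosolic enzymes with a match lay above that of all windows. A window was found for 31 members, and 7 of 17 cytosolic enzymes held the motif while 0 of 14 mitochondrial ones did. Of all 33469 windows in the table, 3.98% held it. Counted by gene, as the members were, 4.16% of all symbols and 2.20% of tested genes with a window did. The mitochondrial count of 0 of 14 lies near these shares, so it does not set those enzymes apart from other genes. A match describes letters only, and the absence of one says nothing of the factor. Of the sites, which do not overlap each other, 1 is shown for each of the 7 genes, from 5′ to 3′ on the strand that reads TGATGNAA, with the motif in capitals.
Aars1: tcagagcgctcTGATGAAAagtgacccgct
Cars: tttccagaatcTGATGCAAccgcggcgccg
Iars1: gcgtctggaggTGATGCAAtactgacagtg
Mars1: ggagcccacgcTGATGCAAccggaacgggc
Nars1: cctaggtgatcTGATGCAAcgcttcagtca
Tars1: agctaaccagcTGATGCAAcgggacgccag
Yars1: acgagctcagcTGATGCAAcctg

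The Aars1 site lies at chr19:55908480-55908509 (minus strand), and the Cars site at chr1:208225334-208225363 (plus). Those of Iars1 and Mars1 lie at chr17:15193658-15193687 and chr7:65023752-65023781 (both plus), and that of Nars1 at chr18:60275778-60275807 (minus). Those of Tars1 and Yars1 lie at chr2:62114811-62114840 and chr5:146820190-146820212 (both plus). The Yars1 site is cut short by the end of its window. The variable base was an A in the Aars1 site and a C in the others shown. Hars1 and Hars2, which encode the cytosolic and mitochondrial histidine enzymes, lie head to head: their windows on opposite strands of chromosome 18 share 243 bases, with no match in either.

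Total counts ran from 14936156 to 22104957 per library. The lowest count of any member in any library was 53, for Pars2, and all 34 members passed the filter on low counts. The Y-linked gene Kdm5d had 280 to 392 counts in the normal libraries, 309 in restricted 5 and 0 in restricted 1 to 4, where up to 0.134 to 0.207 CPM could have gone undetected (a floor of 3 counts per library, counting error only). Sex is not labelled, and in 9 of the 10 libraries Kdm5d divides the libraries as maternal diet does, so the 2 cannot be told apart except through restricted 5. Cyp2c13 and Cux2, checked as sex-biased genes, divided the libraries likewise. Cyp2c13 had 1.29 to 8.29 CPM in restricted 1 to 4, 1035 in restricted 5 and 154 to 2203 in the normal libraries. Cux2 had 13.6 to 24.0 CPM in restricted 1 to 4, 1.74 in restricted 5 and 1.07 to 5.48 in the normal libraries. All 10 hepatocyte markers were present, with a sum of 151615 to 228863 CPM per library that rested mostly on Alb and Tf. Serpina1 was scarce, with at most 22 counts in any library. Of the 10, 8 had negative log2 fold changes, beside 47.7% of all genes tested, and 2 were lower at an unadjusted p of 0.05. Called lower in edgeR was 1, beside 2.22% of all genes: Ttr, which encodes transthyretin (log2 fold change −0.71, adjusted p 0.0497). Ttr kept its call in 2 of the 10 fits without a library (without normal 1 or restricted 3, adjusted p at most 0.131 in the others). It lost the call with the replicate block (0.0815) and with Kdm5d as a covariate (0.163). With restricted 5 as the only restricted library its log2 fold change was −0.98.

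The diets were compared in a series concerned with animals born small for their gestational age. Among the synthetases, Sars1, the cytosolic seryl-tRNA synthetase, rose and Cars2, the mitochondrial cysteinyl-tRNA synthetase, fell in restricted liver. The other 32 members did not pass the test. The 2 called members of 34 stand beside 4.09% of all 12367 genes called (edgeR quasi-likelihood test, Benjamini-Hochberg adjusted p below 0.05 over all genes tested). By direction, 1.87% of all genes were called higher and 2.22% lower. At an unadjusted p below 0.05, 3 members were higher and 6 lower, where 20.1% of all genes passed in either direction.

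Sars1 (ENSRNOG00000020255) had 47.3, 43.1, 40.1, 42.5 and 41.1 CPM (counts scaled to library size, with TMM factors) in normal 1 to 5. It had 68.7, 65.1, 70.8, 63.2 and 51.6 CPM in restricted 1 to 5. Every restricted library lay above every normal one, and restricted 5, the one with Kdm5d counts, was the lowest of its group. The change was 1.49-fold (95% interval 1.29 to 1.72), a log2 fold change of 0.58 ± 0.09 (SE; adjusted p 0.00794 in edgeR). Against the normal libraries, restricted 5 alone gave a log2 fold change of 0.27 (adjusted p 0.275 in edgeR), and without restricted 5 it was 0.65 (adjusted p 0.00268). With Kdm5d as a covariate, the log2 fold change was 0.26 ± 0.13 (SE; adjusted p 0.339). In human cells SARS1 supplies charged serine transfer RNA, also used for selenocysteine.

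Cars2 (ENSRNOG00000014526) had 22.6, 25.1, 28.5, 27.1 and 25.1 CPM in the normal libraries. It had 17.6, 17.7, 17.9, 16.7 and 18.9 CPM in restricted 1 to 5. The groups did not overlap, and the restricted libraries, restricted 5 included, lay within a narrow band. The ratio of restricted over normal was 0.692 (95% interval 0.607 to 0.788), a log2 fold change of −0.53 ± 0.09 (SE; adjusted p 0.00794 in edgeR). The log2 fold change was −0.44 with restricted 5 as the only restricted library (adjusted p 0.152) and −0.43 ± 0.16 with Kdm5d as a covariate (adjusted p 0.185). CARS2 in human and mouse cells is also known to make cysteine persulfides.

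Fars2, the mitochondrial phenylalanyl-tRNA synthetase, was the third member whose groups did not overlap. It had 16.6, 18.3, 17.9, 19.7 and 17.8 CPM in the normal libraries and 11.9, 14.03, 15.6, 12.9 and 16.2 CPM in the restricted ones. Its log2 fold change of −0.36 ± 0.11 (SE) did not pass in edgeR (adjusted p 0.0840) and passed in DESeq2 (adjusted p 0.0444). The margin was small in restricted 5, the highest of its group. In all, 1 member was higher and 2 were lower without overlap, beside 2.91% and 3.44% of all genes. In the authors' deposited table, Sars1, Cars2 and Fars2 had adjusted p of 6.10e-06, 1.44e-05 and 0.0443, and 8.48% of the table's genes were below 0.05. By the authors' own rule, which asks for p under 0.05 and a log2 change beyond 1 in either direction, 0 members and 3.82% of genes were called.

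**Figure D1:**
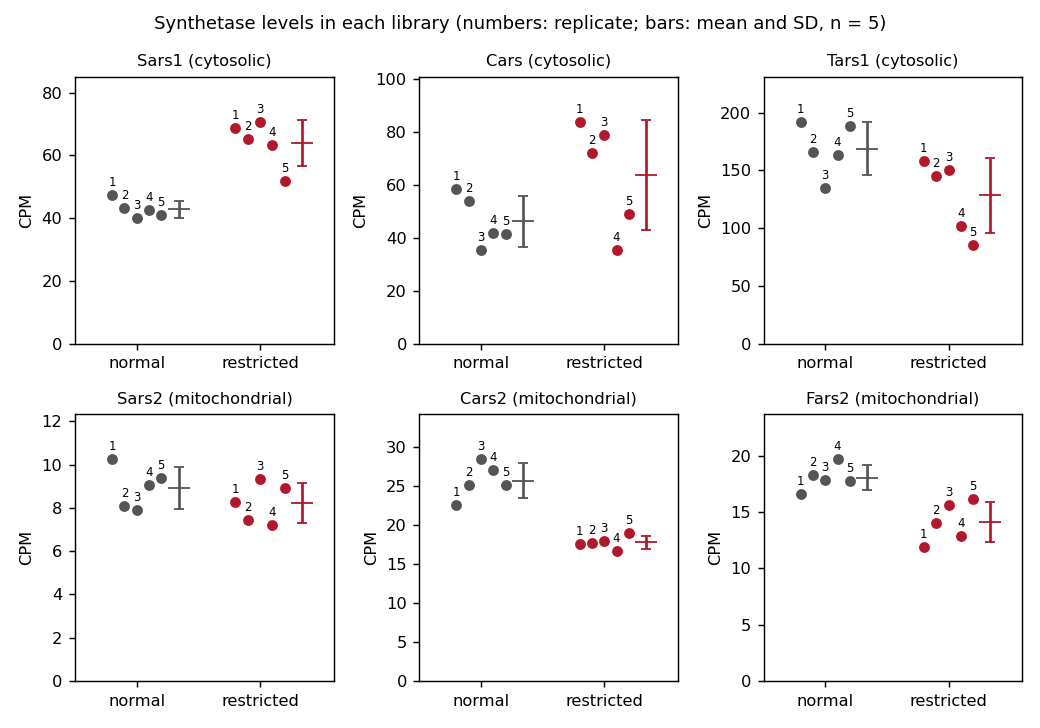
CPM of 6 synthetase genes in each library, cytosolic enzymes in the top row and mitochondrial ones in the bottom row; points are libraries with their replicate number, bars are the mean and SD (n = 5 per group). Sars1 and Cars2 separate the groups without overlap, while Cars and Tars1 spread widely among the restricted libraries.

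The compartments differed in how their members were placed. Of the 14 mitochondrial enzymes, 13 had a negative log2 fold change, with 1 called lower and 0 higher (3 lower and 0 higher at an unadjusted p of 0.05, and 2 lower by DESeq2). Their median was −0.15, beside a median of 0.01 and 47.7% negative values over all genes tested. Of all 12367 genes, 1256 were higher and 1228 lower at an unadjusted p of 0.05. Of 12555 genes, DESeq2 called 525 higher and 542 lower. Of the 20 cytosolic enzymes, 12 were positive and 8 negative, with 1 called higher and 0 lower (3 and 3 at an unadjusted p of 0.05, and 1 higher and 0 lower by DESeq2), and a median of 0.07. With Kdm5d as a covariate the cytosolic median was −0.15 and the mitochondrial one −0.18, so the compartments then lay close together. These medians were not tested. In bulk liver, fewer cells of a type and less RNA per cell cannot be told apart.

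**Figure D2:**
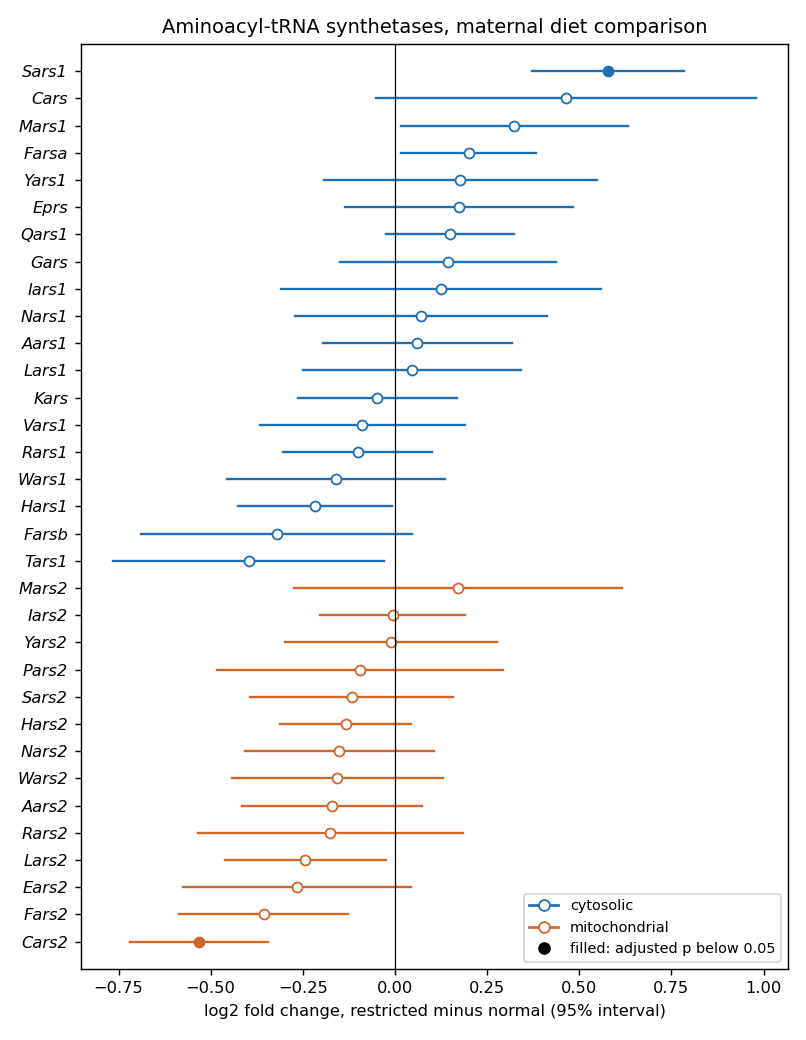
Log2 fold change of restricted minus normal with its 95% interval for the synthetase genes (x axis, log2 scale), cytosolic genes in blue and mitochondrial genes in orange, filled where adjusted p is below 0.05. The intervals of all but Cars2, Fars2 and Lars2 among the mitochondrial genes include 0, and Mars2 alone of these has a positive value.

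Taken per library, the median difference from the normal mean over the mitochondrial enzymes was −0.03 to 0.05 (log2 CPM) in the normal libraries. It was −0.12, −0.25, −0.17, −0.10 and −0.17 in restricted 1 to 5. Every restricted library thus lay below every normal one, restricted 5 included. Over the cytosolic enzymes the same median was 0.18, 0.02, −0.20, −0.03 and −0.01 in normal 1 to 5 and 0.21, 0.24, 0.12, −0.21 and −0.13 in restricted 1 to 5. The cytosolic groups overlapped across nearly their whole range, with restricted 1 to 3 high and restricted 4 and 5 low. The median over all genes stayed between −0.004 and 0.006 in every library. With restricted 5 as the only restricted library the cytosolic median was −0.14 and the mitochondrial one −0.18, and without it they were 0.14 and −0.14.

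The cytosolic enzymes whose promoter window held the motif were split from the others after their values were seen, and they ranged widely from library to library. Their median difference was 0.36, 0.02, −0.31, −0.12 and 0.02 in normal 1 to 5. It was 0.46, 0.46, 0.22, −0.22 and −0.21 in restricted 1 to 5. In normal 1 all 7 lay above the normal mean, as did 9 of the 10 cytosolic enzymes with no match. In normal 3 and normal 4 all 7 lay below it, as did 8 of those 10 in each. In restricted 4 and 5, 6 of the 7 and 6 of those 10 lay below it. The 10 cytosolic enzymes with no match spanned −0.12 to 0.15 in the normal and −0.14 to 0.19 in the restricted libraries. Of the 7, edgeR called 0 (1 higher and 1 lower at an unadjusted p of 0.05, and 0 by DESeq2), and their median log2 fold change was 0.12. The difference between enzymes with and without the motif was not tested.

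**Figure D3:**
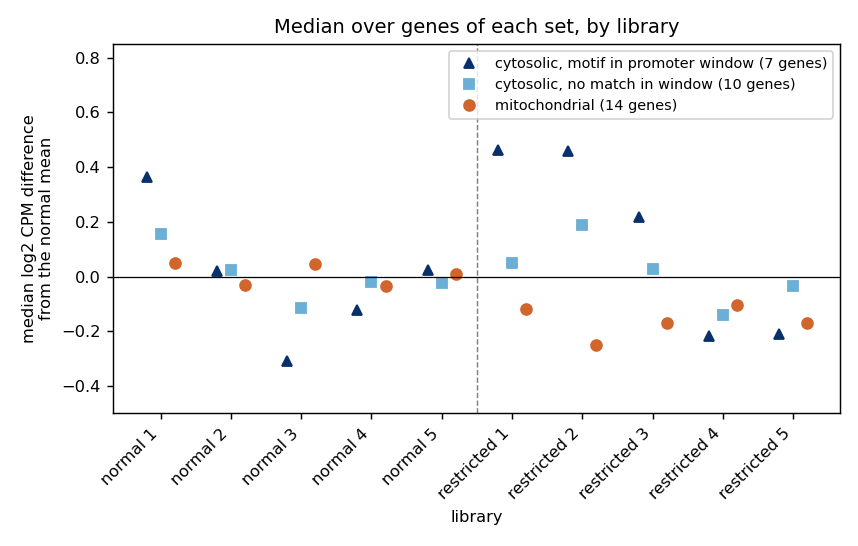
Median over genes of the difference in log2 CPM from the mean of the normal libraries (y axis) in each library (x axis), for cytosolic enzymes with and without the motif and for mitochondrial enzymes. Mitochondrial medians lie below 0 in all 5 restricted libraries, while those with the motif range from −0.31 to 0.46.

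Mars1, the methionyl enzyme of the multi-synthetase complex, showed this spread. It had 91.8, 88.1, 70.8, 74.4 and 82.4 CPM in normal 1 to 5 and 125.7, 111.9, 113.3, 86.3 and 72.8 in restricted 1 to 5. Restricted 1 to 3 stood above all normal libraries and restricted 5 lay among the lowest of them, and the log2 fold change of 0.32 ± 0.14 (SE) did not pass (adjusted p 0.227). Cars, the cytosolic cysteine enzyme, had 58.6, 54.1, 35.5, 41.8 and 41.6 CPM in the normal and 84.0, 72.2, 78.9, 35.6 and 48.8 CPM in the restricted libraries. Restricted 4 was as low as the lowest normal library, and the log2 fold change was 0.46 ± 0.23 (SE; adjusted p 0.293).

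Tars1, the cytosolic threonyl enzyme, was placed the other way. It had 192.2, 165.7, 134.7, 163.4 and 188.1 CPM in the normal and 158.2, 145.4, 150.1, 101.6 and 85.6 in the restricted libraries. All restricted libraries lay below the normal mean and restricted 4 and 5 below every normal library, but the log2 fold change of −0.40 ± 0.17 (SE) did not pass (adjusted p 0.213). With restricted 5 as the only restricted library, Tars1 was the only member called, at −0.98 ± 0.21 (SE; adjusted p 0.0231), in a fit that called 6.49% of all genes. Iars1, Nars1, Yars1 and Aars1 had log2 fold changes of 0.12, 0.07, 0.18 and 0.06, with adjusted p of 0.765, 0.840, 0.597 and 0.817.

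**Figure D4:**
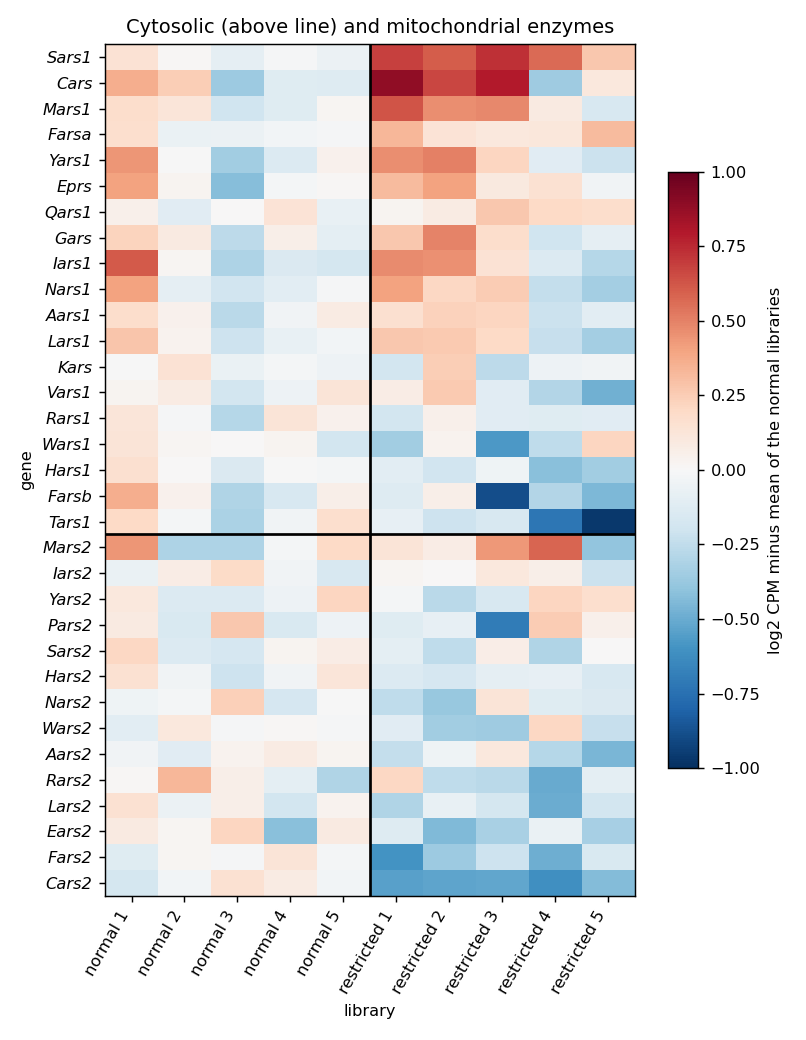
Difference in log2 CPM from the mean of the normal libraries (colour, from −1 to 1) for the synthetase genes (rows) in each library (columns), cytosolic genes above the horizontal line and mitochondrial genes below it. Sars1 is high in all 5 restricted libraries and Cars2 low in all 5, while many cytosolic rows turn from red in restricted 1 to 3 to blue in restricted 4 and 5.

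Among the remaining members with an unadjusted p below 0.05, Lars2, the mitochondrial leucyl enzyme, had 26.6, 23.1, 25.0, 21.1 and 24.6 CPM in the normal and 19.5, 22.8, 21.2, 17.1 and 21.2 CPM in the restricted libraries (log2 fold change −0.24 ± 0.10, SE; adjusted p 0.199). Hars1 had 25.5 to 31.5 and 21.1 to 27.4 CPM (−0.22 ± 0.10, SE; adjusted p 0.231). The groups overlapped for both genes, although every restricted library lay below the normal mean. The subunits of the cytosolic phenylalanyl enzyme, which act as a joint tetramer, were placed apart. Farsa, the alpha subunit, had 37.2, 31.4, 31.6, 32.4 and 32.8 CPM in the normal and 41.6, 36.2, 35.4, 35.6 and 41.1 CPM in the restricted libraries (0.20 ± 0.08, SE; adjusted p 0.207). Farsb, the beta subunit, had 20.003 to 31.8 and 13.3 to 25.7 CPM (−0.32 ± 0.17, SE; adjusted p 0.309). Neither subunit passed, and their difference was not tested. Qars1, the glutaminyl enzyme, lay above the normal mean in all 5 restricted libraries (log2 fold change 0.15, adjusted p 0.320), and the mitochondrial enzymes Ears2 and Hars2 lay below it in all 5 (−0.27 and −0.13, adjusted p 0.316 and 0.380). Aars2, Nars2, Pars2, Rars2, Sars2, Wars2, Yars2, Iars2, Mars2, Gars, Kars, Lars1, Rars1 and Vars1 had log2 fold changes between −0.18 and 0.17, with adjusted p from 0.419 to 0.980. The Mars2 row is annotated as a mitochondrial-like methionine ligase.

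For 14 amino acids both compartments' enzymes were measured, giving 15 pairs. The ratio of their CPM within a library does not depend on depth, but its size depends on gene length, so the change alone is read. The mean ratio of cytosolic to mitochondrial enzyme was higher in restricted liver for 14 of the 15 pairs, histidine being the exception. For tryptophan it was only 1.02-fold higher, and Eprs and Fars2 each entered 2 pairs. The ratio in restricted 5 lay below the normal mean for some pairs, such as leucine (2.27 against 2.55) and tyrosine (4.75 against 6.23). For the remaining pairs, such as alanine (19.8 against 15.6), it lay above. For serine, Sars1 over Sars2 was 4.61, 5.33, 5.08, 4.69 and 4.38 in the normal and 8.30, 8.75, 7.59, 8.76 and 5.80 in the restricted libraries. For phenylalanine, Farsa over Fars2 was 2.24, 1.72, 1.77, 1.64 and 1.84 in the normal and 3.48, 2.58, 2.27, 2.77 and 2.53 in the restricted libraries. These were the 2 pairs whose groups did not overlap.

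For cysteine, Cars over Cars2 had the largest change of the 15 pairs as a fold of the mean ratio (1.96), from 1.84 ± 0.533 to 3.59 ± 1.17 (SD, n = 5 per group), with normal 1 at 2.59 above restricted 4 at 2.13 and restricted 5 at 2.58. The histidine pair, whose promoter windows overlap, had a ratio of 0.642 ± 0.0348 in normal and 0.605 ± 0.0663 in restricted libraries (SD, n = 5 per group). The ratio for tryptophan was 2.86 ± 0.309 and 2.92 ± 0.833. None of these ratios was tested.

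By enzyme class, the 9 cytosolic class I genes centred on a median log2 fold change of 0.12 and had 0 called in edgeR (1 at an unadjusted p of 0.05, and 0 by DESeq2), and 10 cytosolic class II genes had 0.01, with Sars1 called. Eprs, which joins a class I glutamyl and a class II prolyl enzyme in one chain, had 0.17 ± 0.14 (SE; adjusted p 0.528). The 8 enzymes of the multi-synthetase complex, grouped so after their values were seen, had a median of 0.09, with 0 called in edgeR (1 higher and 1 lower at an unadjusted p of 0.05, and 0 by DESeq2). The 12 cytosolic enzymes outside it had a median of 0.07.

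Per gene length, the authors' FPKM (fragments per kilobase of gene, scaled for depth) placed Aars1 highest, at 75.6 ± 9.06 in normal and 80.4 ± 14.1 in restricted liver (SD, n = 5 per group). Its lowest library, at 59.6 FPKM, lay above the highest library of any other member, Gars at 39.6. Gars, which makes both the cytosolic and the mitochondrial glycyl enzyme in mammals, had 25.7 ± 3.67 and 29.0 ± 7.13 FPKM, and Yars1 had 20.8 ± 4.67 and 23.9 ± 6.23. Kars, likewise of both compartments in mammals, had 15.8 ± 0.941 and 15.6 ± 3.08, and Eprs had 14.1 ± 3.07 and 16.2 ± 2.67. Within each library Gars lay above Yars1, although their ranges over the libraries overlapped. Kars and Eprs changed order from library to library. These differences were not tested.

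Mitochondrial enzymes filled the lower end. Nars2 had 0.898 ± 0.0894 and 0.820 ± 0.0855 FPKM, Pars2 had 1.04 ± 0.139 and 0.990 ± 0.219, and Wars2 had 1.26 ± 0.0546 and 1.15 ± 0.142. Iars2, at 11.6 ± 1.10 and 11.7 ± 0.817 FPKM, was the highest mitochondrial member and the 8th of all 34. The order rests on the gene lengths behind the FPKM, which ran from 1.69 kb for Yars2 to 23.9 kb for Eprs as implied by counts and totals. By CPM, Eprs lay above Aars1 in every library, with means of 338 and 264 in the normal libraries. Hars1 and Hars2 had implied lengths of 1.95 and 17.1 kb. By FPKM Hars1 was the higher, at 14.4 ± 1.35 against 2.56 ± 0.273 in the normal libraries, while by CPM Hars2 was, at 44.1 ± 4.36 against 28.2 ± 2.16.

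**Figure D5:**
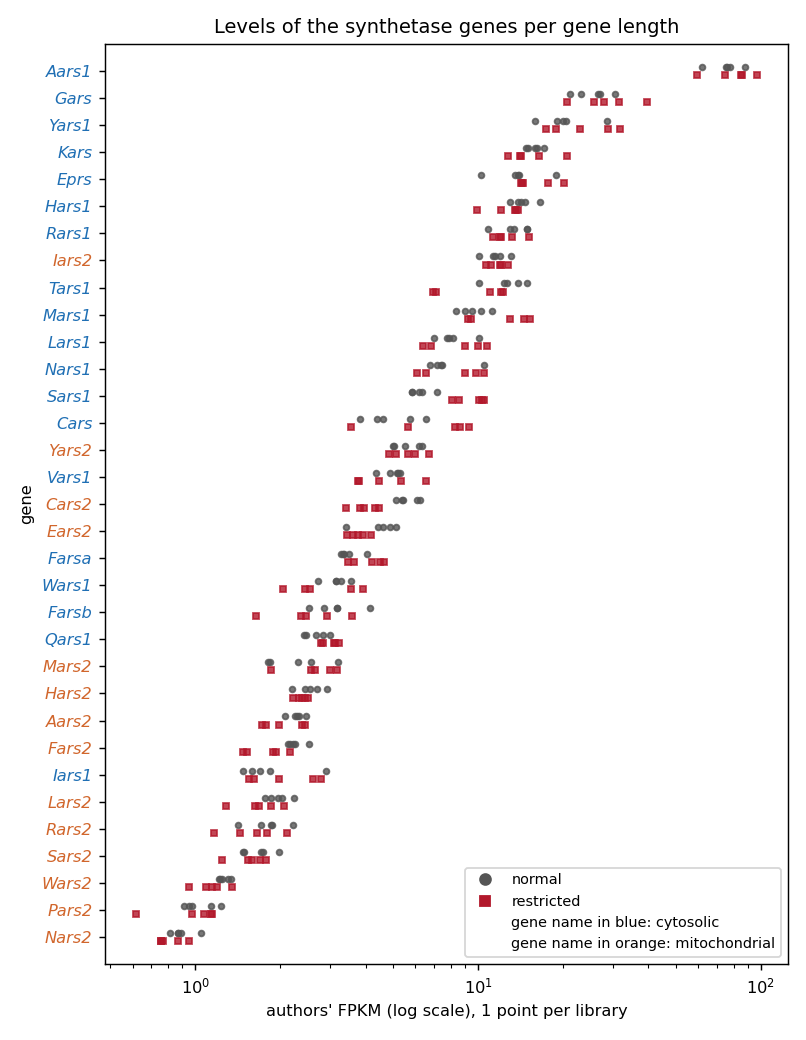
Authors' FPKM on a log scale (x axis) for the synthetase genes (y axis, ordered by mean), 1 point per library, circles for normal and squares for restricted. Aars1 stands apart at 59.6 to 97.2 FPKM, and Iars2 is the highest mitochondrial gene.

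Genes that work beside the synthetases were described from lists fixed with earlier results of these data known. The 3 scaffold proteins of the multi-synthetase complex had 0 called in edgeR (1 lower at an unadjusted p of 0.05, and 0 by DESeq2). Aimp1 had a log2 fold change of −0.28 ± 0.11 (SE; adjusted p 0.184), Aimp2 −0.17 and Eef1e1 0.11. Of 11 other aminoacylation genes, edgeR called 0 (1 higher and 2 lower at an unadjusted p of 0.05, and 1 lower by DESeq2). Gatc and Qrsl1, subunits of the mitochondrial amidotransferase that completes glutaminyl transfer RNA, had log2 fold changes of −0.53 ± 0.16 (SE; adjusted p 0.0937) and 0.60 ± 0.24 (SE; adjusted p 0.180). Dtd2 and Sepsecs had −0.29 and −0.23.

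Of 8 elongation factor genes, edgeR called 1 higher and 0 lower, beside 1.87% and 2.22% of all genes. At an unadjusted p of 0.05, 1 was higher and 3 lower, and DESeq2 called 1 higher and 1 lower. The gene called higher in edgeR was Eef2k, the kinase that inhibits elongation factor 2. It had 11.6, 13.8, 18.5, 15.7 and 14.4 CPM in the normal and 19.1, 23.9, 24.2, 18.9 and 23.4 CPM in the restricted libraries. The groups did not overlap, as for 2.91% of all genes in this direction. The log2 fold change was 0.56 ± 0.13 (SE; adjusted p 0.0334 in edgeR). Among the 10 fits without a library, Eef2k kept its call without normal 3, restricted 1 or restricted 4. Its adjusted p was at most 0.0866 among the other 7 omissions. It also kept the call with the replicate block in edgeR (adjusted p 0.0420) and in DESeq2 (0.00441). Fitted with Kdm5d as a covariate, its log2 fold change was 0.68 (adjusted p 0.142), and restricted 5 as the only restricted library gave 0.66 (adjusted p 0.112). The mitochondrial factors Gfm1, Tsfm and Tufm had log2 fold changes of −0.26, −0.41 and −0.27, none of which passed in edgeR (adjusted p 0.0695, 0.129 and 0.191), while DESeq2 called Gfm1 lower (adjusted p 0.0175). The list's median was −0.06.

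Among 22 tested genes known to respond to ATF4 or amino acid shortage, 3 rose and 1 fell in edgeR, beside 1.87% of all genes higher and 2.22% lower, with a median log2 fold change of 0.52. At an unadjusted p of 0.05, 6 were higher and 2 lower, and DESeq2 called 4 higher and 1 lower. Trib3, a pseudokinase, had 13.999, 5.86, 4.82, 5.68 and 3.91 CPM in the normal and 22.0, 26.6, 15.9, 19.2 and 15.9 CPM in the restricted libraries (log2 fold change 1.54 ± 0.32, SE; adjusted p 0.0274). Ddit4, an inhibitor of mTORC1 signalling, rose by 0.98 ± 0.22 (SE; adjusted p 0.0274), and Cebpb, a partner of ATF4, by 0.62 ± 0.15 (SE; adjusted p 0.0403). Shmt2, which makes glycine from serine in mitochondria, fell from a mean of 193 ± 15.2 CPM (SD) in 5 normal libraries to 119 ± 17.4 CPM (SD) in 5 restricted ones (adjusted p 0.00770 in edgeR). The groups did not overlap for these 4 genes, beside 2.91% of all genes higher and 3.44% lower without overlap.

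Shmt2 kept its call without any 1 library. Trib3 lost it without normal 2, 3, 4 or 5 or restricted 2 or 4 (adjusted p at most 0.0730), Ddit4 without normal 2, 4 or 5 or restricted 2 (at most 0.0703), and Cebpb without any library except restricted 1 (at most 0.0843). With the replicate block in edgeR, Ddit4 and Cebpb also lost their calls (adjusted p 0.0634 and 0.0581). Trib3 and Shmt2 kept theirs (0.0129 and 0.0206). With Kdm5d as a covariate the log2 fold changes of Trib3, Ddit4, Cebpb and Shmt2 were 1.18, 1.14, 0.99 and −0.78, and none passed (adjusted p 0.285, 0.126, 0.0594 and 0.0856). With restricted 5 as the only restricted library they were 1.21, 1.13, 0.99 and −0.77, and Cebpb and Shmt2 passed (adjusted p 0.0287 and 0.0224). Atf4 itself had 94.5 ± 14.4 and 116 ± 25.6 CPM (SD, n = 5 per group; adjusted p 0.309).

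Asns and Psat1, chosen after their values were seen, encode enzymes of asparagine and serine synthesis. Asns had 21.4, 2.55, 8.50, 3.17 and 3.10 CPM in normal 1 to 5 and 24.4, 38.2, 10.6, 10.7 and 7.79 in restricted 1 to 5. Psat1 had 35.8, 12.7, 10.6, 12.7 and 14.1 CPM in normal 1 to 5 and 40.9, 41.8, 36.6, 8.27 and 6.35 in restricted 1 to 5. Normal 1 was the highest normal library for both, and neither gene passed the diet test (adjusted p 0.358 and 0.594).

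Among 7 tested genes of the eIF2alpha kinases and their regulators, edgeR called 0 (1 lower at an unadjusted p of 0.05, and 1 lower by DESeq2). Gcn1, which activates the amino acid sensing kinase GCN2, had a log2 fold change of −0.30 ± 0.09 (SE; adjusted p 0.0852), and Eif2ak1, Ppp1r15b and Impact had 0.10, 0.12 and 0.13. Among 9 MYC and mTORC1 regulators edgeR called 0 (2 higher at an unadjusted p of 0.05, and 0 by DESeq2). Rragc and Max had 0.26 and 0.23, and Mtor and Mxd4 had −0.13 and −0.12.

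Wars1, the cytosolic tryptophanyl enzyme, is known in human cells as an interferon-induced gene. It had 28.7, 26.7, 26.4, 26.8 and 23.2 CPM in the normal and 20.7, 26.9, 17.6, 22.0 and 30.6 CPM in the restricted libraries (log2 fold change −0.16 ± 0.14, SE; adjusted p 0.542). Restricted 5 and restricted 2 were its highest restricted libraries. Cxcl10, an interferon-induced chemokine, had 2.76, 46.9, 5.74, 0.591 and 110 CPM in restricted 1 to 5 and 2.70 to 16.9 CPM in the normal libraries. All 16 tested interferon genes had positive log2 fold changes, with 0 called in edgeR (1 at an unadjusted p of 0.05, and 0 by DESeq2), and Psmb8, Gbp2 and Tap1 had 0.75, 1.52 and 0.93. For each of the 16, restricted 2 and 5 were the highest of all libraries. Irf7 had 22.3, 22.9 and 7.61 CPM in restricted 1, 3 and 4, below the normal 34.4 to 158. Psmb8 had 52.4, 52.9 and 56.3 CPM there, near the normal 46.6 to 53.7.

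Markers of other cells also varied with the libraries. The 12 tested Kupffer cell and macrophage markers were all positive, with 0 called in edgeR (7 at an unadjusted p of 0.05, and 3 by DESeq2), and their sum was 948 to 1246 CPM in the normal and 1073 to 2743 CPM in the restricted libraries, highest in restricted 5. The 5 tested T and NK cell markers were all positive, with 0 called in edgeR (3 at an unadjusted p of 0.05, and 2 by DESeq2). With a further marker that the filter removed, their sums were 3.44 to 8.19 and 5.30 to 33.6 CPM. Of 4 erythroid markers, with sums of 644 to 1034 and 495 to 2043 CPM, Ahsp was called higher (adjusted p 0.0408 in edgeR). Ahsp kept its call in 2 of the 10 fits without a library (without restricted 1 or restricted 5, adjusted p at most 0.104 in the others) and lost it with the replicate block (0.0633), with Kdm5d as a covariate (0.406) and with restricted 5 as the only restricted library (0.285). Sums of cholangiocyte markers were 13.7 to 19.3 and 13.8 to 21.5 CPM, of stellate cell markers 1119 to 1465 and 725 to 1973, of endothelial markers 379 to 431 and 389 to 434, and of B cell markers 1.37 to 4.96 and 1.83 to 6.43. No marker in the table was at 0 in every library. The part of other cell types in the synthetase results was not tested.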

How the data were processed

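RNA from 10 rat liver libraries was sequenced on an Illumina NovaSeq instrument. Reads passed bcl2fastq, fastp and HTSeq on build rn7, per the submitters' processing notes, and HISAT2, per the series' design text. The labels give no tool version, gene annotation or counting strand. The deposited raw counts per gene are the authors' whole-number counts, 1 column per library, and the deposited FPKM values are scaled by the authors for gene length and depth. Beside them stand the authors' fold change (restricted divided by normal), its log2 value, a p-value and an adjusted p, all as deposited by the authors, without a named test.

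From the counts, edgeR 4.0.16 in R 4.3.3 was run with filterByExpr (minimum count 10, 12367 of 12555 genes kept, 188 removed), TMM scaling and a robust quasi-likelihood fit, two-sided, and p-values were adjusted by Benjamini-Hochberg across the 12367 genes. Printed 95% intervals come from this fit. Per-library medians use log2 CPM with a prior count of 2. Within groups, no 2 libraries repeated each other (lowest chi-square over its degrees of freedom, 21.1). The result was recomputed with DESeq2 1.42.0, RLE or upper-quartile scaling, no filter, at least 1 CPM in 5 libraries, a block for replicate number, Kdm5d as a covariate, restricted 5 as the only restricted library (assumed to vary like the other libraries), and each library left out.

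The members, lists and compartments were chosen with earlier results of these data known. Named are the members, except that 1 member and 1 promoter site are not reported here, with values in every library for the 8 of smallest p, levels for the 5 highest and 3 lowest by FPKM, and of each pathway list the 4 of smallest p and all called. Promoter sequences are RefSeq's, on GRCr8, matched by symbol or synonym for 31 of 34 members. The promoter build differs from that of the counts. Other motifs looked at in the same windows are not reported, and protein sequences were not used here.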

Additional observations from a re-analysis of the deposited data

Results flagged for a closer look

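Each group of 5 libraries was checked for every member for a library far from the others, 68 groups in all, of which chance marks about 1 in 20, and 4 stood apart. Farsa in normal 1 had 37.2 CPM, against 31.4 to 32.8 CPM in the other normal libraries. Nars1 in normal 1 had 103 CPM, against 68.2 to 77.4 CPM. Kars in normal 2 had 87.1 CPM, against 75.4 to 78.5 CPM. Rars1 in restricted 2 had 33.0 CPM, against 28.1 to 29.5 CPM in the other restricted libraries.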

How the results depend on the processing

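Sars1 and Cars2 were called, and no other member, under RLE and upper-quartile scaling, without a filter, with the stricter filter and in each of the 10 fits without a library. Leaving out 1 library gave 1 member higher and 1 lower each time, with medians of 0.01 to 0.14 for cytosolic and −0.17 to −0.12 for mitochondrial members. DESeq2 called 2 members lower, adding Fars2. With Kdm5d as a covariate 0 members were higher and 0 lower, and the medians were −0.15 for cytosolic and −0.18 for mitochondrial members. With restricted 5 as the only restricted library 0 were higher and 1 lower, Tars1, and the cytosolic median was −0.14. The cause was not tested, but the last fit has 6 libraries. Replicate numbers did not pair the libraries (correlations of same-numbered deviations from −0.185 to 0.121), and the fit with the replicate block called the same 2 members, 1 higher and 1 lower, with medians of 0.06 and −0.16. Over all genes 506 were called, against 1067 by DESeq2, 265 with the block, 121 with Kdm5d as a covariate, 802 for restricted 5 alone and 213 to 470 without a library. Of 612 values of single members under alternatives, 38 changed sign, all for members called in neither fit. The fewest counts of any member were those of Pars2, Rars2 and Mars2, with 53, 76 and 79 in their lowest libraries.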
